A study of Mus musculus with 4 samples.

Results

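Genes of cholesterol synthesis, its control and sterol transport were examined in RNA from spinal motor neurons of mice transgenic for wild-type or G85R SOD1-YFP. The list of 29 genes was set by symbol, and 28 of them were found among the 27189 genes of the deposited tables, each with 1 entry. Hmgcs1 was not analyzed here. Of the 28 genes, 27 had a mean RPKM (reads scaled to transcript length and to the mapped reads of a library) of at least 1 over the libraries and were tested among 11530 genes, while Idi1 lay below this minimum.

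The 4 libraries were made from large Azure B-stained cell bodies of the ventral horn, laser captured from 1 mouse each at 3 months of age (3000 to 4000 cell bodies per animal). There were 2 libraries from the strain wildtype 592, which carries human SOD1 fused to YFP at low copy number, and 2 from strain 737, which carries the G85R form of the same fusion at high copy number. All mice were C57BL/6J x SJL/J and carried the human genomic SOD1 fragment with YFP, and no nontransgenic library was used here, so that mutation, copy number and transgene insertion cannot be told apart. The G85R mice were presymptomatic at this age, and cells with large YFP aggregates were left out of the capture. Replicates were separate animals, 2 of each strain. P-values of limma, described below, rest on the spread between these animals, moderated across genes. Those of the log-linear test, also described below, assume the spread of counts and do not measure the spread between animals. The defining motor neuron marker Chat, which encodes choline acetyltransferase, was measured at 66.3 and 81.2 RPKM in wild-type against 49.6 and 65.5 in G85R. Of the 6 motor neuron markers listed, Chat fell most, and 0 were called by limma. While 5 were lower in mean in G85R, Slc5a7 was higher, with 184 and 189 in wild-type against 167 and 221 in G85R. In RNA from many cells, fewer cells of a type and less RNA per cell cannot be told apart.

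Cholesterol is made in the endoplasmic reticulum from acetyl-CoA, by way of mevalonate, isoprenoids, squalene and lanosterol. When sterols run low in that membrane, SCAP escorts the SREBP precursors to the Golgi, where they are cleaved into transcription factors for most genes of the pathway, and INSIG proteins hold the complex back when sterols are plentiful. The adult nervous system makes its own cholesterol, with oligodendrocytes needing much of it for myelin and astrocytes supplying it to neurons on lipoprotein particles, which LRP1 and related receptors take up. Within cells NPC1 and NPC2 carry the sterol out of lysosomes, and ABCA1 and ABCG1 export it.

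Nearly every step of the pathway was represented in the captured RNA. RPKM are per length, so that levels of different genes can be set side by side. The highest were Pmvk, phosphomevalonate kinase, with a mean RPKM of 84.3 over the 4 libraries, Sc4mol, the sterol C4-methyl oxidase now named Msmo1, with 77.9, and Sqle, squalene epoxidase, with 71.1. These 3 overlapped in part but were listed above all others, since the lowest Sqle value (67.5) exceeded the highest value of Acat2 (55.9). Acat2, Insig1, Fdft1, Fdps and Idi1 hold much repeated sequence, given below, so that their levels and their places in this order are uncertain. Acat2, the cytosolic acetoacetyl-CoA thiolase, and Cyp51, the lanosterol demethylase, followed with means of 46.6 and 46.0. From Insig2 (38.2) down to Abcg1 (13.3) the levels formed a row of 17 genes in which each overlapped its neighbor in range. Below this row lay Npc1 (8.55), Stard4 (5.75), Lss (5.18), Fdps (2.49), Abca1 (2.21) and Idi1 (0.105).

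**Figure D1:**
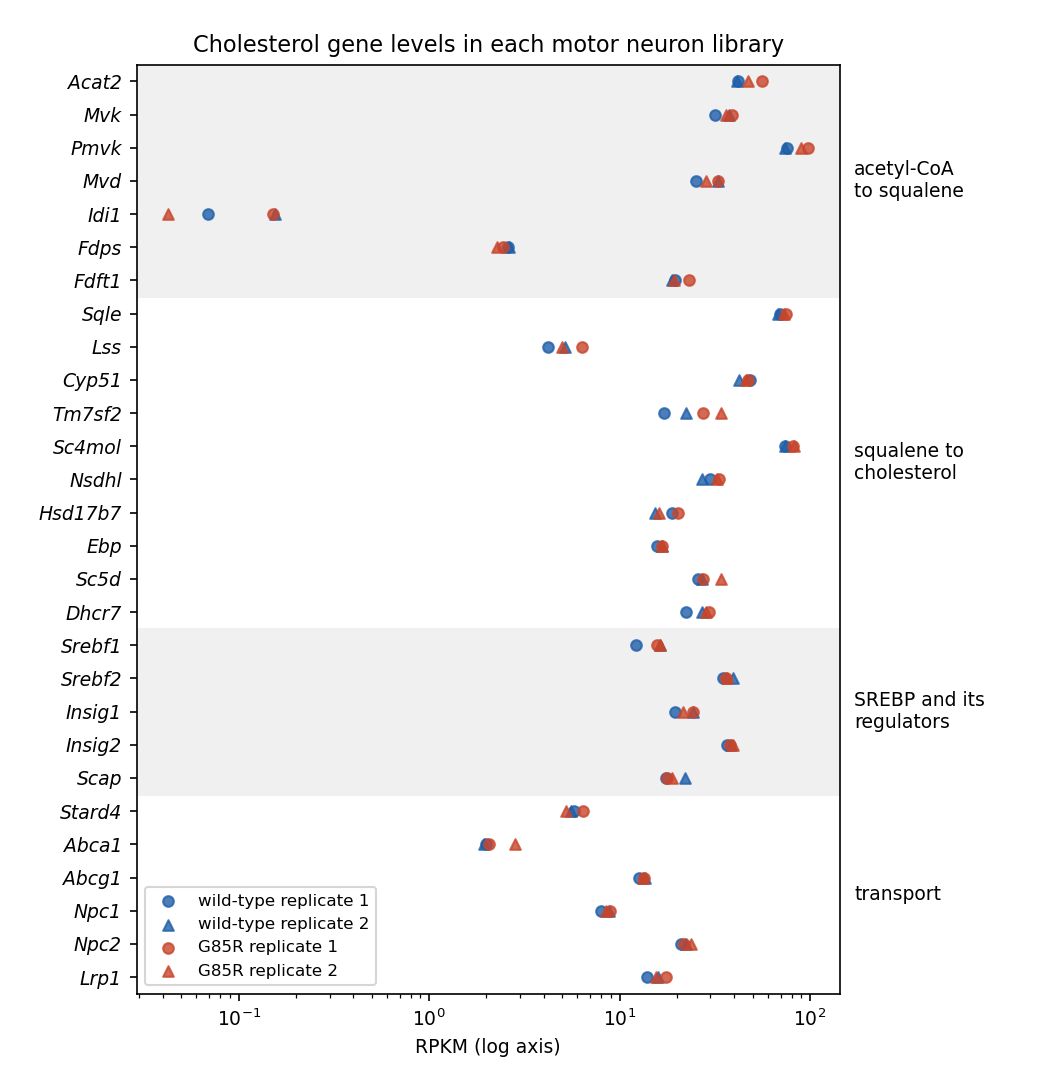
RPKM of the 28 members found, on a log axis, in each of the 4 libraries, ordered by step of the pathway. Most members lie between about 13.3 and 84.3 on average and the libraries lie close together, while Idi1 and Fdps are low among the synthesis genes.

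The median tested member stood at the 70.4th percentile of mean RPKM among the tested genes, and 22 of the 27 were above the median gene. By step, the median was at the 79.0th percentile for the 6 tested genes from acetyl-CoA to squalene. It was at the 75.5th for the 10 genes from squalene to cholesterol. For the 5 genes of SREBP and its regulators it was at the 70.4th, and for the 6 transport genes at the 51.2th. The lowest transport gene, Abca1, was at the 14.1th percentile. The RNA of Srebf2, whose product acts mainly on cholesterol genes, had a mean of 36.7, above that of Srebf1 (15.1), whose product acts mainly on fatty acid genes. Their ranges over the libraries, 34.9 to 39.2 and 12.2 to 16.3, did not overlap. Insig2 (36.8 to 39.4) was also listed above Insig1 (19.5 to 24.3), but Insig1 holds much repeated sequence, given below. Its level and this order are therefore uncertain.

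Low levels of isopentenyl diphosphate isomerase (Idi1) and farnesyl diphosphate synthase (Fdps) went together with repeated sequence. Idi1 was listed at 0.0692 and 0.156 in wild-type against 0.152 and 0.0428 in G85R, which is 3 to 12 estimated reads per library. Its longest coding transcript was cut into overlapping words of 32 bases, and 84.5% of the words found in the NCBIM37 assembly were found there more than once. The share was 81.1% for Fdps, 49.3% for Acat2, 46.3% for Insig1 and 27.5% for Fdft1. In the other 23 members found it was under 10%, and in 13 it was 0. Uniquely mapped reads were used by the authors, so that the levels of these 5 genes are uncertain, and the part of repeated sequence in them was not tested.

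**Figure D2:**
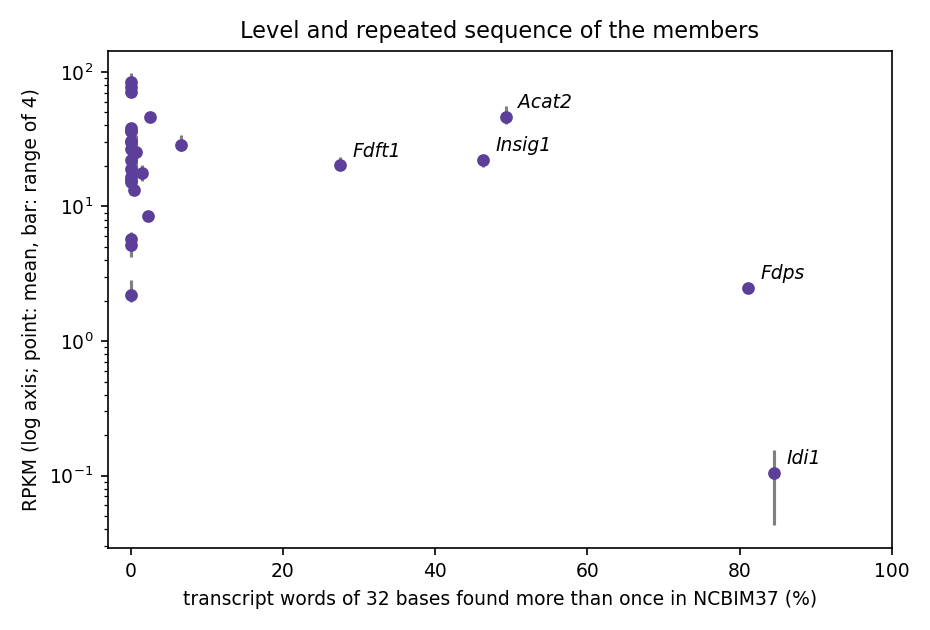
Mean RPKM (points, log axis, with bars for the range over 4 libraries) of each member against the percentage of its 32-base transcript words that occur more than once in the NCBIM37 assembly. Fdps and Idi1, at 81.1% and 84.5%, have the lowest levels among the synthesis genes, while Acat2 and Insig1 (49.3% and 46.3%) lie amid the others.

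Differences between genotypes were small throughout the list. In limma, a linear model per gene whose variance is moderated across genes, on log2(RPKM + 0.1), 0 of the 27 tested members had a Benjamini-Hochberg adjusted p under 0.05, where 0.642% of all tested genes did (0.269% higher and 0.373% lower in G85R), and the lowest adjusted p was 0.213. The pseudocount of 0.1 makes the fold of low genes too small. At an unadjusted p under 0.05 there were 3 members, Tm7sf2, Pmvk and Acat2, all higher in G85R, beside 4.66% of all tested genes higher at this level and 11% in either direction. The log-linear likelihood ratio test of the study was computed here on the RPKM with 1 read added, rounded and taken as counts. It called 0 members after adjustment, beside 0.228% of the genes in the tables. At a raw p under 0.05 there were 2, Tm7sf2 and Pmvk, beside 1.29%. Because RPKM are not read counts, these p-values do not reflect the number of reads of a gene. The 95% interval of the difference lay within 2-fold in both directions for 26 of the 27 members, all except Tm7sf2. For any 1 gene the exact two-sided permutation p has its minimum at 0.333 in this design.

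The direction of these small differences was mostly upward. The mean was higher in G85R for 24 of the 27 tested members, beside 45.3% of all tested genes. The median of their log2 fold changes was 0.11, beside -0.02 over all tested genes. Both G85R libraries lay above both wild-type libraries in 9 members (33.3%), beside 17.3% of all tested genes, and below both in 1, Fdps, beside 23.9% of all tested genes. Of the 9, 8 were synthesis genes. Members share regulators and are no independent observations, and the list was chosen with earlier results of these data known. These counts are therefore a description and no test. Between the wild-type replicates (2 minus 1) the median was 0.09 for all tested members and 0.01 for the synthesis members, beside 0.11 and 0.14 between genotypes. Differences of opposite sign cancel in these medians. Regardless of sign, the median difference between the wild-type replicates was 0.14 for all tested members and 0.12 for the synthesis members. Between the G85R replicates (2 minus 1) the signed medians were -0.05 and -0.07. Without wild-type replicate 1, 17 of the 27 members had a higher mean in G85R, beside 46.2% of all tested genes, and without G85R replicate 1 it was 20, beside 42.9%. The medians were then 0.05 and 0.06. Without wild-type replicate 2 or G85R replicate 2 it was 24, beside 45.2% and 49.2% of all tested genes, with medians of 0.13 and 0.15. After rescaling by the median ratio or quantile normalization the number stayed at 24, beside 50.4% and 49.3% of all tested genes.

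**Figure D3:**
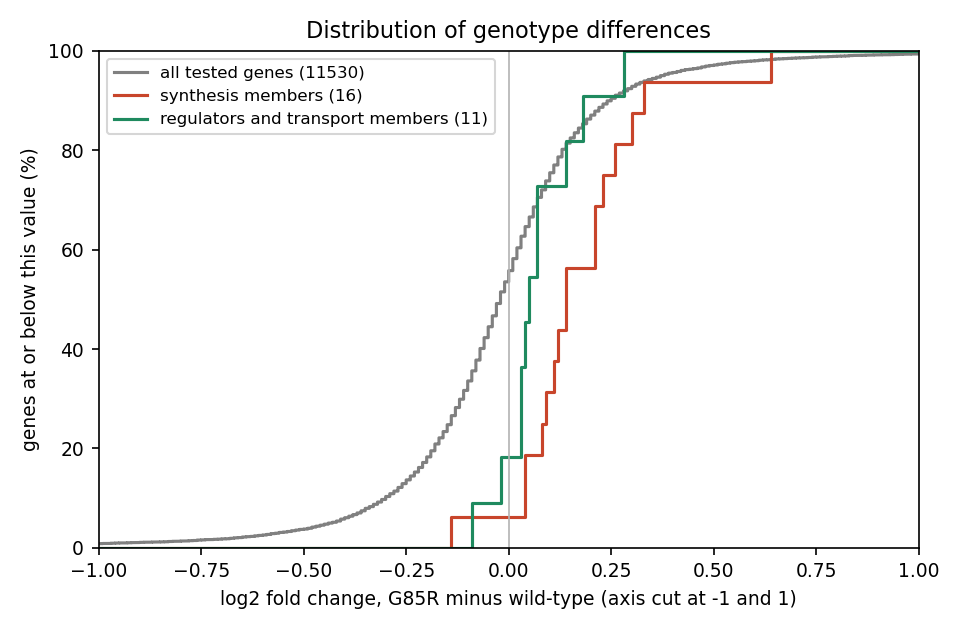
Cumulative distribution of the log2 fold change (G85R minus wild-type, axis cut at -1 and 1) for all 11530 tested genes, the 16 tested synthesis members and the 11 members of regulation and transport. The synthesis curve lies to the right of that of all genes over most of its length, with medians of 0.14 and -0.02.

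Among the enzymes from acetyl-CoA to squalene, Pmvk (Entrez Gene 68603, chr3:89263040-89272935, plus strand), which makes mevalonate diphosphate, differed most. Its RPKM was 75.5 and 74.0 in wild-type against 97.6 and 90.0 in G85R, estimated from 2169 to 2559 reads. Both G85R values were above both wild-type values, and the genotype means of 74.8 ± 1.05 and 93.8 ± 5.35 (SD, n = 2 each) were a 1.25-fold difference (log2 fold change 0.33, standard error 0.10, adjusted p = 0.293 from limma). Acat2 (110460, chr17:13135756-13153613, minus strand), which joins acetyl-CoA units in the first step, had 41.9 and 41.3 in wild-type against 55.9 and 47.1 in G85R, again without overlap. The difference was 1.23-fold (log2 fold change 0.30 with a standard error of 0.12, adjusted p = 0.419 from limma) and had a log2 value of 0.18 without G85R replicate 1, the higher of the pair.

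Fdps (110196, chr3:88897514-88905881, minus strand), which condenses isoprenoid units to farnesyl diphosphate, was the only member with both G85R values below both wild-type values, with 2.60 and 2.63 in wild-type against 2.45 and 2.28 in G85R. This rests on 79 to 100 estimated reads per library, and the log2 fold change of -0.14 had a 95% interval from -0.53 to 0.25. Mevalonate kinase (Mvk), with 31.7 and 37.7 in wild-type against 38.8 and 36.3 in G85R, and mevalonate diphosphate decarboxylase (Mvd), with 25.2 and 32.9 against 33.0 and 28.4, overlapped between the genotypes. In both genes wild-type replicate 1 was the lowest library, and without it their log2 fold changes were -0.01 and -0.10. Fdft1, squalene synthase, was at 19.5 and 18.9 in wild-type and at 23.2 and 19.4 in G85R, so that only G85R replicate 1 stood higher. Exons of Fdft1 share 26.9% of their bases with exons of Ctsb, and its reads cannot all be assigned to it. Over the 6 tested genes of these steps 5 were higher in mean in G85R, and the median was 0.13 on the log2 scale.

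In the steps from squalene to cholesterol all 10 genes were higher in mean in G85R. Their log2 fold changes lay between 0.04 and 0.64 with a median of 0.17, and 0 of them passed the adjusted threshold in limma, with 1, Tm7sf2, at an unadjusted p under 0.05, where 11% of all tested genes were. Both G85R libraries were above both wild-type libraries in 6 of the 10, beside 17.3% of all tested genes. Tm7sf2 (73166, chr19:6062821-6068373, minus strand) encodes a sterol C14-reductase of the endoplasmic reticulum and had the largest difference of the list. Its RPKM was 17.1 and 22.4 in wild-type against 27.4 and 34.1 in G85R. The genotypes did not overlap, with means of 19.8 ± 3.74 and 30.7 ± 4.78 (SD, n = 2 each). This was a 1.56-fold difference with a 95% interval from 1.18 to 2.05 (log2 fold change 0.64, standard error 0.17, adjusted p = 0.213 from limma), estimated from 595 to 1149 reads per library. The higher of its G85R values was in replicate 2, unlike those of Pmvk and Acat2. Of its exon bases, 15.3% are shared with exons of 1110014N23Rik, so that reads of these genes cannot all be told apart.

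The other genes of these steps differed less. Sc4mol (66234, chr8:67196936-67212589, minus strand), which starts the removal of the C4 methyl groups, had nearly equal replicates, with 74.3 and 74.0 in wild-type against 81.4 and 81.9 in G85R. Its difference was 1.10-fold (95% interval 0.944 to 1.28), and the adjusted p was 0.681 from limma, whose moderated variance is larger than the spread between these replicates. Nsdhl, the dehydrogenase of the same demethylation, had 29.8 and 27.0 in wild-type against 33.2 and 32.3 in G85R. Hsd17b7, the reductase that completes it, overlapped between the genotypes, with 18.9 and 15.4 against 20.2 and 16.1.

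Sqle, which makes the epoxide of squalene, was at 69.4 and 67.5 in wild-type against 75.0 and 72.6 in G85R, a 1.08-fold difference (95% interval 0.921 to 1.26). Lanosterol synthase (Lss), which closes the ring system, was less abundant, with 4.23 and 5.15 against 6.34 and 4.99, and overlapped. Cyp51, which removes the C14 methyl group of lanosterol, had 48.3 and 42.6 in wild-type against 47.0 and 46.2 in G85R, and Ebp, the sterol isomerase, had 15.8 and 16.8 against 16.8 and 16.8. Both had a log2 fold change of 0.04 with a 95% interval from -0.22 to 0.30. The last enzymes, sterol C5-desaturase (Sc5d) and 7-dehydrocholesterol reductase (Dhcr7), did not overlap between the genotypes. Sc5d had 25.9 and 27.0 in wild-type against 27.4 and 34.2 in G85R, where only G85R replicate 2 stood clearly higher. Dhcr7 had 22.3 and 27.2 in wild-type against 29.4 and 28.4 in G85R, and their adjusted p were 0.651 and 0.583 from limma.

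**Figure D4:**
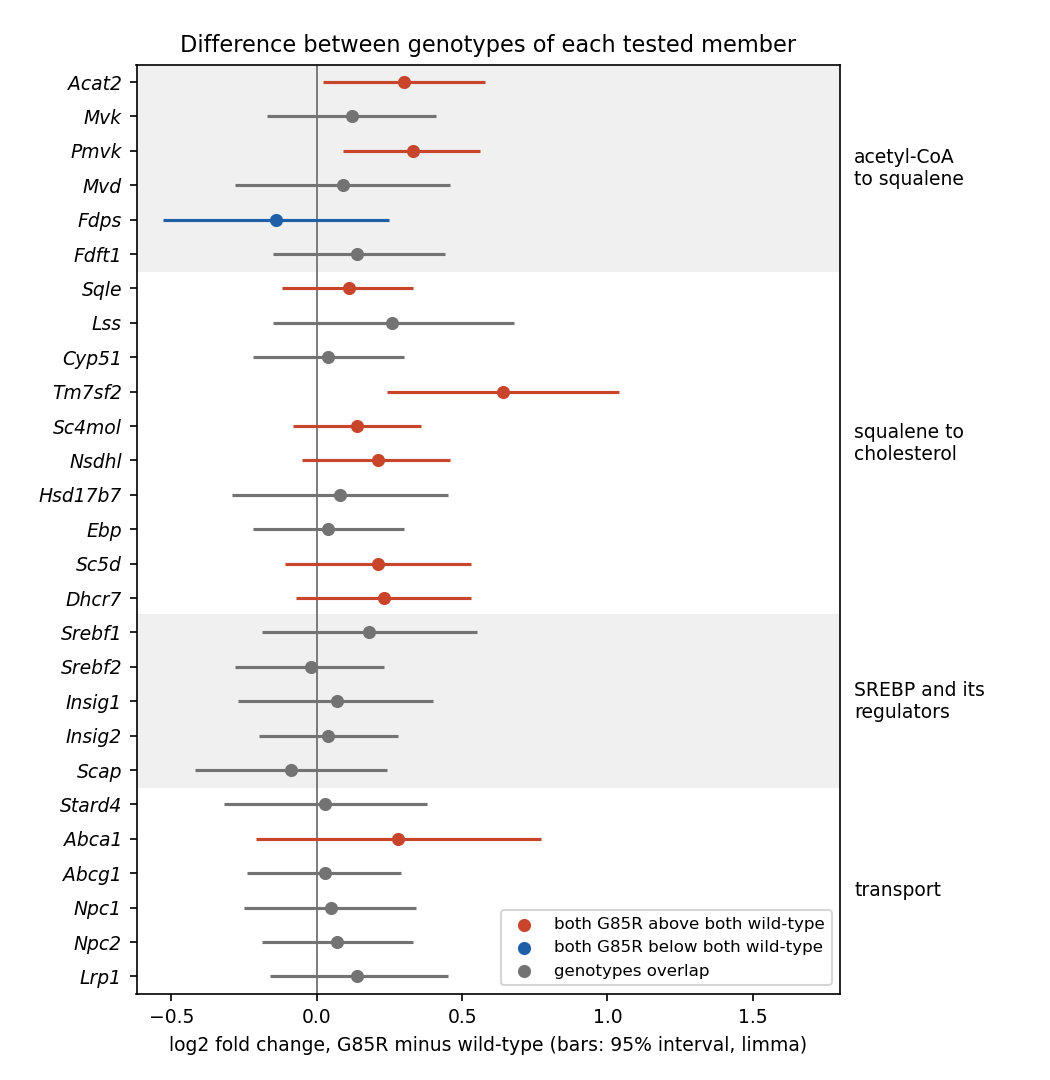
Log2 fold change (G85R minus wild-type) of the 27 tested members with 95% intervals from limma, colored by whether the libraries of the genotypes overlap. The intervals of 3 members, Tm7sf2, Pmvk and Acat2, lie above 0 before adjustment, and all 10 genes from squalene to cholesterol have positive values.

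SREBP and its regulators overlapped between the genotypes in all 5 genes, with a median log2 fold change of 0.04. Of all tested genes, 17.3% had both G85R libraries above both wild-type libraries and 23.9% had both below. Srebf2 had 34.9 and 39.2 in wild-type against 36.0 and 36.8 in G85R, and its log2 fold change of -0.02 had a 95% interval from -0.28 to 0.23. Srebf1 had 12.2 and 16.3 in wild-type against 15.7 and 16.3 in G85R, where only wild-type replicate 1 was lower. The same library was lowest for the SREBP escort Scap, with 17.5 and 22.0 in wild-type against 17.8 and 18.9 in G85R, and for the retention proteins Insig1, with 19.5 and 24.3 against 24.2 and 21.5, and Insig2, with 36.8 and 38.6 against 38.2 and 39.4. Over these 5 genes wild-type replicate 2 exceeded wild-type replicate 1 by a median of 0.32 on the log2 scale, more than the difference between the genotypes. Insig1 is itself a target of SREBP, and its log2 fold change of 0.07 had a 95% interval from -0.27 to 0.40. Scap shares 18.9% of its exon bases with exons of 5830462I19Rik.

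Of the 6 transport genes, 5 overlapped between the genotypes. In 1 (16.7%) both G85R values were above both wild-type values, beside 17.3% of all tested genes. This was Abca1, with 1.99 and 1.95 in wild-type against 2.06 and 2.84 in G85R. Abca1 exports cholesterol to apolipoproteins and is induced by the oxysterol receptors LXR. The difference was mainly in G85R replicate 2, and the log2 fold change of 0.28 had a standard error of 0.21 (adjusted p = 0.706 from limma). Abcg1, an exporter under the same control, had 12.7 and 13.6 in wild-type against 13.5 and 13.3 in G85R, with a log2 fold change of 0.03 and a 95% interval from -0.24 to 0.29. The lysosomal pair was also close, with log2 fold changes of 0.05 for Npc1 (8.01 and 8.82 against 8.92 and 8.44) and 0.07 for Npc2 (21.0 and 22.3 against 21.9 and 23.6). The cytosolic sterol carrier Stard4 had 5.76 and 5.59 in wild-type against 6.41 and 5.24 in G85R. Lrp1, a receptor for lipoproteins and other ligands, had 13.9 and 15.9 against 17.5 and 15.5, with a log2 fold change of 0.14 and a 95% interval from -0.16 to 0.45.

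Other genes around the pathway were read from the same fit. Of 68 further genes listed for synthesis and its branches, regulation, transport and storage, and fatty acid synthesis under SREBP, 63 were tested, and 27 of them had a higher mean in G85R. The median log2 fold change of the 63 was -0.01. With limma 1 of them was called, Coq2, which attaches the isoprenoid tail in ubiquinone synthesis, a branch of the mevalonate pathway. It fell from 17.3 and 17.2 in wild-type to 8.12 and 9.32 in G85R (log2 fold change -0.98, standard error 0.12, adjusted p = 0.0272 from limma) and was not called after quantile normalization, without a minimum RPKM or with eBayes without trend, nor by the log-linear test (adjusted p = 1.0). That test called 1 other of these genes, Apoe (adjusted p = 1.41e-05), which encodes the main lipoprotein carrier of brain cholesterol, is abundant in astrocytes and was named after its values were seen. Apoe was at 136 and 160 in wild-type against 293 and 159 in G85R, high in G85R replicate 1 alone, with an adjusted p of 0.511 from limma (0.00917 without G85R replicate 2). Dhdds, which makes dolichol precursors from the same isoprenoids, had 58.4 and 56.8 in wild-type against 50.4 and 50.4 in G85R (log2 fold change -0.19, adjusted p = 0.537 from limma).

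Of 9 tested genes of regulation, 4 had a higher mean in G85R. Nr1h3, the gene of LXR alpha, had 5.78 and 6.10 in wild-type against 3.52 and 4.70 in G85R (-0.53 on the log2 scale, with an adjusted p of 0.317 from limma), and Rxra, the gene of its partner receptor, had 17.3 and 17.9 against 13.3 and 15.6. In transport and storage 9 of 29 tested genes had a higher mean in G85R and 20 a lower one, with a median of -0.05 on the log2 scale. The lipocalin Apod had 30.7 and 30.9 in wild-type against 22.6 and 22.5 in G85R (-0.45 on the log2 scale, with an adjusted p of 0.151 from limma), and the oxysterol-binding protein gene Osbpl3 had 0.934 and 1.07 against 1.69 and 1.55. Lcat, which esterifies cholesterol on lipoproteins, and the lipoprotein receptor gene Scarb1 had log2 fold changes of -0.40 and -0.36 (adjusted p of 0.636 and 0.511 from limma). Of 12 tested genes for fatty acid synthesis under SREBP 7 had a higher mean in G85R and the median was 0.03, and 0 were called by limma, with 2 at an unadjusted p under 0.05. These were Pnpla3, a lipid droplet protein, at 2.39 and 2.83 against 4.67 and 3.68, and the desaturase Fads2 at 6.42 and 8.05 against 12.2 and 9.10.

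Markers of other cells of the ventral horn were present in all libraries and differed between them. Summed over 7 oligodendrocyte markers the RPKM was 905 and 854 in wild-type against 1080 and 832 in G85R. Over 6 astrocyte markers it was 33.8 and 37.1 in wild-type against 124 and 49.0 in G85R, mainly through Gfap, with 11.5 and 17.1 against 91.9 and 28.4. Over 7 microglia markers it was 13.95 and 15.7 against 33.5 and 16.7, with C1qa at 3.29 and 3.24 against 11.0 and 4.14. Over 4 endothelium markers, with Cldn5 the highest, it was 7.78 and 8.88 against 6.89 and 6.72. Of the markers listed for these 4 cell types, 0 were at an RPKM of 0. Of the red blood cell genes, Hbb-b1 and Hba-a2 had 2 entries each, and only the entry with the higher mean RPKM was read. Hbb-b1, whose reads may be shared with closely similar globin genes, rose from 1.75 and 2.00 to 10.7 and 10.2. This was 2.42 on the log2 scale, with an adjusted p of 0.00173 from limma. Hba-a2 was listed at 0 in 3 of the 4 libraries. The 6 motor neuron markers summed to 1370 and 1642 in wild-type and to 1191 and 1452 in G85R.

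G85R replicate 1 thus stood apart, with all 7 oligodendrocyte, all 6 astrocyte and all 7 microglia markers at their highest of the 4 libraries. It also held the highest value for 10 of the 17 synthesis genes found (58.8%), beside 27.3% of all tested genes. Against the wild-type mean, the median log2 difference of the 16 tested synthesis genes was 0.21 in this library and 0.09 in G85R replicate 2. Summed RPKM of the genes from squalene to cholesterol were 326 and 325 in wild-type against 364 and 368 in the G85R libraries, nearly equal in the latter, while those from acetyl-CoA to squalene were 197 and 208 against 251 and 224. Without G85R replicate 1 the mean was higher in G85R for 13 of the 16 tested synthesis genes, with a median of 0.09. The part of the marker differences in the member values was not tested.

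**Figure D5:**
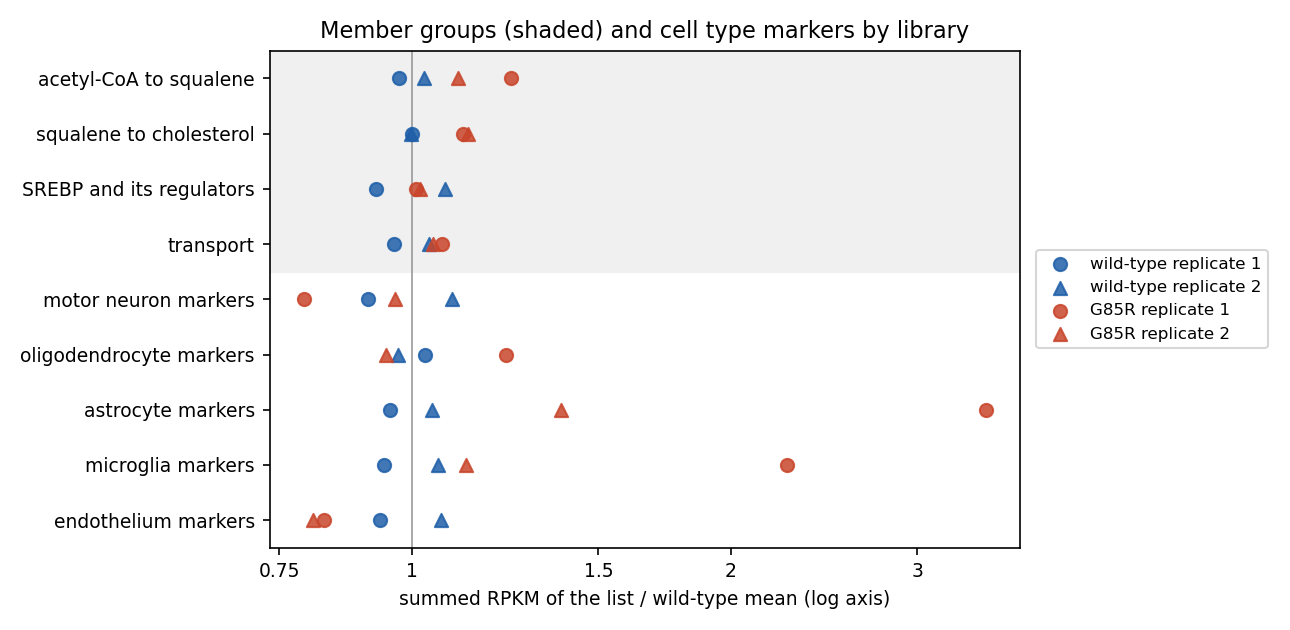
Summed RPKM of each member group (shaded) and each list of cell type markers in the 4 libraries, divided by the wild-type mean (log axis). Both G85R libraries lie above both wild-type libraries for the 2 synthesis groups, for transport and for the astrocyte and microglia markers. G85R replicate 1 lies far to the right for astrocyte and microglia markers and to the left for motor neuron markers.

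The synthesis genes share a promoter feature that was not used to choose them. SREBP acts together with the CCAAT-binding factor NF-Y at many of its targets. Promoters of RefSeq genes (GRCm38.p6, from 250 bases before to 50 bases after each start) were given for 22 of the 28 members found, and the letters CCAAT were present on either strand in at least 1 promoter of 18 of them (81.8%), beside 41.1% of 27025 genes. Of 14 synthesis genes with a promoter 13 held it, Acat2 being the exception. The letters TCACNCCAC of the SREBP site, searched on both strands, were found in 0 of the 22, beside 1.44% of all genes, which says only that they are not in these windows. Neither motif contains the other. A match is a description and no evidence of binding.

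A CCAAT box is shown for the 6 synthesis genes with both G85R libraries above both wild-type libraries and a promoter holding the box. It is the box nearest to the start among those whose stretch of 30 bases lies wholly before the start. Any box closer to the start or after it is not shown. Each stretch is 5′ to 3′ on the strand of the gene, with the box in capitals, as CCAAT or as ATTGG where it lies on the opposite strand.
Pmvk: aactcaggttggCCAATtcacagcatctag
Tm7sf2: ctcccagcgctgATTGGctactgtgctggg
Sc4mol: gagtggggcggaCCAATtacgacaggcgag
Nsdhl: aagactagcctcATTGGgcaaaatcatgct
Sc5d: cgccggctgctgATTGGccggctgcctgca
Dhcr7: aatccacttccgATTGGtcgtctgtgacct

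Each stretch matched NCBIM37, the assembly that UCSC names mm9, at 1 place. That of Pmvk lies at chr3:89258315-89258344 on the plus strand outside annotated genes, 131 bases before the RefSeq start of 1 of its 2 promoters. In the annotation of that assembly Pmvk starts further downstream, at chr3:89263040, and its other promoter does not hold the box. That of Tm7sf2 lies at chr19:6067880-6067909 on the minus strand in an exon of Tm7sf2 and of 1110014N23Rik in the annotation of that assembly, whose start differs from that of RefSeq, and that of Sc4mol at chr8:67212413-67212442 on the minus strand in an exon of Sc4mol. Those of Nsdhl (chrX:70163828-70163857, plus strand) and Sc5d (chr9:42072390-42072419, minus strand) lie outside annotated genes, 15 and 19 bases before the RefSeq start. That of Dhcr7, at chr7:151016058-151016087 on the plus strand, is in an exon of Dhcr7 and belongs to 1 of its 3 promoters. The boxes of Tm7sf2, Sc4mol and Dhcr7 end 42, 50 and 44 bases before their RefSeq starts. Both genes with the largest differences, Tm7sf2 and Pmvk, hold the box, Pmvk in 1 of its 2 promoters. But so do Ebp and Cyp51, whose log2 fold changes were 0.04.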

How the data were processed

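The authors mapped reads with Bowtie 0.12.3 (per the labels) to mm9 and splice junctions of UCSC Known Genes, quantified expression with Cufflinks per UCSC gene cluster and deposited RPKM, plain and after adding 1 read. Their difference is the RPKM of 1 read, with a median of 0.0195 to 0.0226 in the 4 libraries, and dividing by it gave estimated reads (21560318 to 25186594 per library), which are no exact counts. Genotypes were compared 2 against 2 with limma 3.58.1 in R 4.3.3 (eBayes with trend) on log2(RPKM + 0.1) for genes averaging an RPKM of 1 or more, with adjustment over all 11530 genes. The log-linear test of the study, which assumes counts, was computed as an alternative on rounded RPKM after adding 1 read, with adjustment over all 27189 genes. Scripts were tested on simulated data. Member places and exon overlaps come from the NCBIM37 annotation (GENCODE M1). Counting by strand is not given in the sources used here.

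Named genes are all members, and of the other lists those past the threshold and up to 4 others with the largest log2 fold change whose genotypes did not overlap. The members and lists were chosen with earlier results of these data known, and other genes were left out of the text. Alternatives were pseudocounts, scalings, minimum RPKM, a replicate block, eBayes options and leaving out each library. Python 3.11.15, numpy 2.4.6, pandas 2.3.3, scipy 1.17.1 and matplotlib 3.10.9 were used.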

Additional observations from a re-analysis of the deposited data

How the results depend on the processing

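Of 376 combinations of a tested member and an alternative, 360 kept the direction and the side of the threshold. The 15 reversals all arose without 1 library, where the lone library is assumed to vary like the others. Without 1 library, the log2 fold change ranged from -0.01 to 0.24 for Mvk, -0.10 to 0.28 for Mvd, -0.01 to 0.08 for Ebp, -0.03 to 0.39 for Srebf1, -0.09 to 0.22 for Insig1, -0.03 to 0.08 for Abcg1 and -0.02 to 0.11 for Npc1, with the lowest value of each without wild-type replicate 1. It ranged from -0.05 to 0.13 for Cyp51, -0.11 to 0.06 for Srebf2 and -0.26 to 0.07 for Scap, reversed without wild-type replicate 2, and from -0.08 to 0.24 for Hsd17b7 and -0.11 to 0.17 for Stard4, lowest without G85R replicate 1. The other change was Tm7sf2, called with a replicate block (adjusted p = 0.00353 from limma), where 1 member, 2 of the other pathway genes (Coq2 and Apod) and 527 of all tested genes (4.57%) were called. Without the block, its adjusted p ranged from 0.0875 to 0.746. The labels do not say what libraries of 1 number share, and deviations of same-numbered libraries correlated with r = 0.22 across genes.

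The 74 calls over all genes became 39 after quantile normalization, 17 with a minimum RPKM of 5, 112 without a minimum, 49 with eBayes without trend, and 78 to 188 without 1 library, the highest without G85R replicate 2. Coq2 was the 1 other pathway gene called, with 0 called after quantile normalization, without a minimum or with eBayes without trend, and 1 to 2 without 1 library, the second being Apoe without G85R replicate 2 (adjusted p = 0.00917 from limma). The log-linear test called Apoe and not Coq2. Without 1 library, 0 members were called, and the members higher in all G85R libraries, 9 in all, numbered 11 to 22 of 27, beside 27.6% to 34.4% of all tested genes, since fewer libraries overlap less. The alternatives for this count and for the other pathway genes were chosen after seeing the data, as were the counts of higher means without 1 library. Median log2 fold changes without 1 library ranged from 0.05 to 0.15 for all members, from 0.04 to 0.26 from acetyl-CoA to squalene, from 0.12 to 0.18 from squalene to cholesterol, from -0.09 to 0.07 for SREBP and regulators, lowest without wild-type replicate 1, and from 0.04 to 0.12 for transport. The causes of these changes were not tested.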
